A study of Mus musculus with 451 samples.

Results

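The cells described here were tail tendon cells with low levels of the tenocyte genes Tnmd and Fmod that leaned towards Serpine2, Itm2a and Myoc and away from Cd55, Scara5, Cd248, Emilin2 and Efemp1. Of 451 cells they were 65 of the 227 from wild-type (WT) mice and 62 of the 224 from Mkx-/- mice. Members were chosen from measured levels. Each of the 289 cells whose mean of Tnmd and Fmod was below 10 on the log2 scale of CPM plus 1 (CPM being a gene's read count scaled to a total of 1000000 reads) received a score, and a score of 0 or below made a cell a member. The score was the mean standardized level of the 5 genes Cd55 to Efemp1 minus that of the 3 genes Serpine2, Itm2a and Myoc. The members are called Serpine2-side cells below, the scored cells above 0 (84 WT and 78 Mkx-/-) are called Cd55-side cells, and the cells that were not scored (78 WT and 84 Mkx-/-) are called Tnmd-high cells. The levels of these 10 genes chose the cells, so the 10 genes serve here as a description alone.

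All cells came from tail tendons of C57BL/6 mice aged 4 weeks, either WT or lacking Mkx, which encodes the homeobox transcription factor Mohawk. The tendons were digested with collagenase, and single cells were captured and reverse transcribed on a Fluidigm C1 high-throughput circuit. The study asked how the cell populations of the tendon differ when Mkx is missing, since these mice form bone within their tendons. No animal, sex or chip was named for any cell, so each genotype counted as 1 sample, no replicate check was possible, and every interval below covers the counting of reads or cells alone.

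Tendon is built by tenocytes, which secrete the type I collagen fibrils that carry load and mark themselves by Tnmd (tenomodulin) and the fibril-binding proteoglycan Fmod (fibromodulin). Around and between the fibre bundles lies loose connective tissue with fibroblasts and progenitor-like cells, commonly recognized by Thy1, Cd44, Ly6a and Pdgfra. Serpine2 encodes an inhibitor of thrombin and plasminogen activators, Itm2a a membrane protein of differentiating mesenchymal cells, and Myoc the secreted glycoprotein myocilin.

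The cut was not a gap between kinds of cells. The median score was -0.81 in WT and -1.18 in Mkx-/- members, and 20 members lay within 0.25 below the cut while 29 Cd55-side cells lay within 0.25 above it. The members nearest to the cut scored -1.84e-05, -0.0101 and -0.0197, and the nearest cells outside scored 0.00209, 0.00604 and 0.0250. At the other border, the members with the highest mean of Tnmd and Fmod stood at 9.998, 9.992 and 9.06 on the log2 scale, and the lowest of the Tnmd-high cells at 10.1, 10.3 and 10.3. Of the members, 6 WT and 27 Mkx-/- cells had a mean over 7, and some of the genotype results are given below also without these 33 cells. The median of this mean was 5.30 in WT and 6.86 in Mkx-/- members. It was likewise higher in Mkx-/- mice in Cd55-side cells (5.35 and 6.47) and in Tnmd-high cells (11.96 and 12.38), so this shift was not particular to the members.

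Serpine2 stood at 754 CPM in the WT members and 585 in the Mkx-/- members, against 140.8 and 157.6 in Cd55-side cells and 86.9 and 74.6 in Tnmd-high cells. These levels, like those of Itm2a and Myoc, were fixed by the choice of members. Lgals3, the gene for galectin-3, is a named marker of intermediate tendon cells that the rule did not use. It stood at 1331 CPM (1287 to 1376) in WT members and 1919 (1870 to 1969) in Mkx-/- members, 1.59-fold and 2.29-fold over Cd55-side cells and 1.86-fold and 1.34-fold over Tnmd-high cells. Lgals3 was thus highest in the Serpine2-side cells in both genotypes, by under 2-fold in 3 of the 4 comparisons, and in Mkx-/- mice its gap to Tnmd-high cells (0.42 log2) was close to the shift of the median gene (0.38) given below. Over the alternatives tried its smallest gap was -0.11 to 0.67 log2. Per WT member the lowest cell was at 0, the median at 1084 and the highest at 6701 CPM, and 61 of the 65 cells held a read.

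The tables were shallow. A WT member held 36441 reads at the median (13076 to 88616) and a Mkx-/- member 45140 (16249 to 124618), with 2618 and 2933.5 genes detected, against medians of 49782.5 and 47489.5 reads in Cd55-side cells and 81693 and 72897 in Tnmd-high cells. No 2 of the 451 cells held the same values. Col1a1, Col1a2 and Sparc together took 30.1% of the reads of WT and 21.3% of Mkx-/- Tnmd-high cells, but 2.40% and 3.61% of those of the members. CPM is a share, and the median gene stood 0.58 (WT) and 0.38 (Mkx-/-) log2 higher in members than in Tnmd-high cells, and -0.05 and -0.03 from Cd55-side cells, and differences from Tnmd-high cells are to be read relative to these shifts. Counts of genes above or below both classes were made on CPM, without taking the shifts off. Mkx itself had 5 and 7 reads in WT and Mkx-/- members (1.90 and 2.32 CPM) and stood at 68.1 and 28.9 CPM in Tnmd-high cells. Neither the deleted part of the gene nor the place of these reads in it is stated in the sources used here, so Mkx reads do not check the genotype labels.

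The question of whether the Serpine2-side cells stood between the other classes was asked of lineage genes that the rule did not use. They kept most of the surface genes of the progenitor list at a middle level, but their tenocyte genes were nearly as low as those of Cd55-side cells. Of 12 progenitor genes, 9 lay between the other classes in both genotypes, 1 was above both and 0 were below both, where 19.3% of 10953 genes with at least 100 reads over all cells stood above both other classes in both genotypes at any size, and 7% below both. The list's median stood -0.64 (WT) and -0.90 (Mkx-/-) log2 from Cd55-side cells and 1.82 and 1.23 above Tnmd-high cells. Of 11 tenocyte genes, 3 lay between in both genotypes and 2 were below both, and the list's median stood -0.06 and 0.55 log2 from Cd55-side cells and -4.96 and -3.30 from Tnmd-high cells. The name intermediate thus held for the progenitor genes and, in WT, not for the tenocyte genes, and the cells are called here by their rule.

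**Figure D1:**
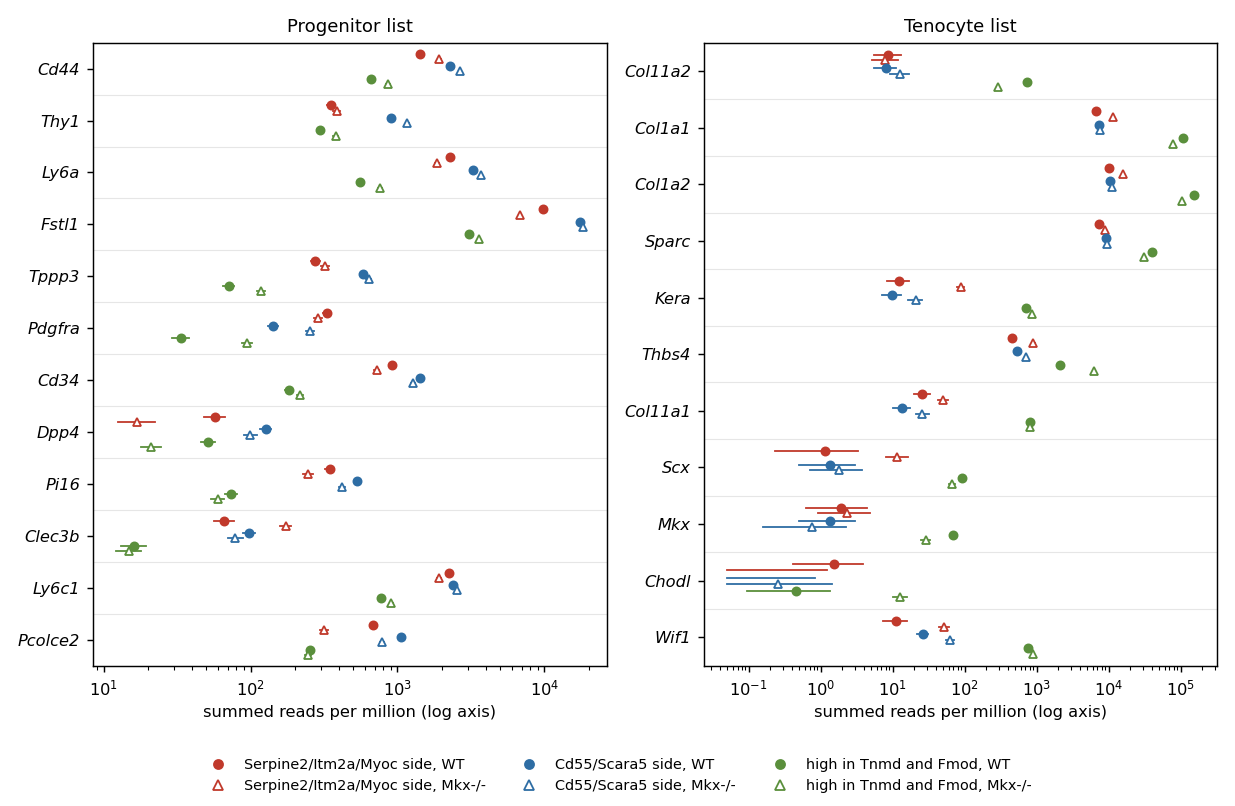
Levels of lineage genes outside the rule, as CPM of summed reads on a log axis, in Cd55-side, Serpine2-side and Tnmd-high cells of each genotype, with exact Poisson 95% intervals as bars (a bar with no point stands for 0 reads). Progenitor genes such as Fstl1 and Thy1 sat between the other classes in the Serpine2-side cells, while Col1a1, Col1a2 and Sparc stayed near the Cd55-side level, far below Tnmd-high cells.

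Fstl1, a secreted follistatin-like protein named as a marker of tendon progenitors, showed the middle level clearly. In WT members the lowest cell was at 54.3, the median at 8423 and the highest at 28767 CPM, and in Mkx-/- members the lowest cell was at 781, the median at 5769 and the highest at 16038 CPM. The summed level was 9817 and 6844 CPM, below 17462 and 18264 in Cd55-side cells and above 3095 and 3567 in Tnmd-high cells. Every member held reads of this gene, while the ranges of single cells were wide. Cd44, the hyaluronan receptor, stood at 1427 and 1926 CPM against 2276 and 2664 in Cd55-side and 658 and 862 in Tnmd-high cells. Thy1, a surface glycoprotein of fibroblasts, stood at 352 and 386 CPM, 2.57-fold and 3.03-fold under Cd55-side cells and only 1.19-fold and 1.02-fold over Tnmd-high cells. Pdgfra, the receptor for platelet-derived growth factor that marks connective tissue progenitors, was the progenitor gene above both other classes. It stood at 332 and 288 CPM against 142.6 and 252 in Cd55-side cells and 33.5 and 94.1 in Tnmd-high cells, the gap to Cd55-side cells in Mkx-/- being 1.14-fold.

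Col1a1, a chain of type I collagen, stood at 6595 CPM in WT members and 7296 in WT Cd55-side cells, against 107594 in WT Tnmd-high cells. In Mkx-/- mice the members stood at 11342, Cd55-side cells at 7677 and Tnmd-high cells at 78393 CPM. Every member held Col1a1 reads, and in WT members the lowest cell was at 716, the median at 6187 and the highest at 23578 CPM. Sparc, a collagen-binding matrix protein, was lower in members (7318 and 8952 CPM) than in Cd55-side cells (9347 and 9621) in both genotypes. Scx, the scleraxis transcription factor of the tendon lineage, had 3 reads in WT members and 35 in Mkx-/- members. Over all genes at least 2-fold apart between the other classes in both genotypes, 470 were higher in Tnmd-high cells, and the members lay between in both genotypes for 38.5% of these. Of 1580 genes higher in Cd55-side cells, the members lay between for 646 (40.9%). On a scale with Cd55-side cells at 0% and Tnmd-high cells at 100%, the median of the first set stood at 43.2% in WT and 47.3% in Mkx-/-, and that of the second at 23.9% and 33.6%. Across all such genes the members were therefore between the classes more often than past either, with many genes whose order differed between genotypes (231 and 758).

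Another question was which genes were highest in the Serpine2-side cells. Of 6693 genes with at least 100 reads over the members, 1.66% were over 2-fold higher than in both other classes in both genotypes, and 13 of these carry symbols of predicted genes or gene copies. Since the classes were cut from these same cells, this share describes them and is no test. With the shift taken off by median-of-ratios scaling 69 genes passed, and 7 of the 15 leading genes then fell under 2-fold in at least 1 comparison. The 15 leading genes included secreted and matrix proteins (Smoc2, Dmkn, Krtdap, Hmcn1), proteins of innate defence (C1ra, Ifi203, Mndal) and a growth inhibitor (Cdkn1c).

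Smoc2, which encodes a matricellular protein of the SPARC family and lies at chr17:14279490-14404790 (RefSeq, GRCm38.p6), had the widest margin of the 15, its smallest gap over the 4 comparisons (each other class in each genotype) being 1.81 log2. It stood at 185.9 CPM (169.8 to 203.1) in WT members and 260.4 (243 to 279) in Mkx-/- members, against 33.7 and 64.4 in Cd55-side and 24.1 and 74.04 in Tnmd-high cells. In WT members the lowest cell was at 0, the median at 0 and the highest at 1374 CPM, and 32 of 65 held a read. In Mkx-/- members the lowest cell was at 0, the median at 14.1 and the highest at 3902 CPM, and 32 of 62 held a read. About as many members were at 0 as were not, so the class level rests on a part of its cells. Smoc2 was the 1 leading gene that stayed over 2-fold above both classes under every alternative tried.

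Dmkn and Krtdap encode dermokine and the keratinocyte differentiation-associated protein, small secreted proteins best known from the epidermis, and are neighbours on chromosome 7 (chr7:30763756-30781066 and chr7:30787905-30791089). Dmkn stood at 232 and 538 CPM against 76.3 and 55.7 in Cd55-side cells and 49.5 and 121.1 in Tnmd-high cells. In WT members the lowest cell was at 0, the median at 0 and the highest at 4281 CPM, and in Mkx-/- members the lowest cell was at 0, the median at 23.9 and the highest at 7654 CPM. Dmkn was thus high in some members and absent from the reads of most WT ones (25 of 65 with a read). Krtdap was the more even of the pair, with reads in 48 of 65 WT and 54 of 62 Mkx-/- members. Its summed level was 535 and 689 CPM against 214.2 and 267 in Cd55-side and 67.1 and 119.6 in Tnmd-high cells, and in WT members the lowest cell was at 0, the median at 229 and the highest at 3233 CPM. Of the 5 keratinocyte markers the keratins Krt5, Krt14 and Krt1 had 0 reads in the members, while Krt10 was read in 7 of 65 WT and 9 of 62 Mkx-/- members and Dsp in 1 WT member.

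**Figure D2:**
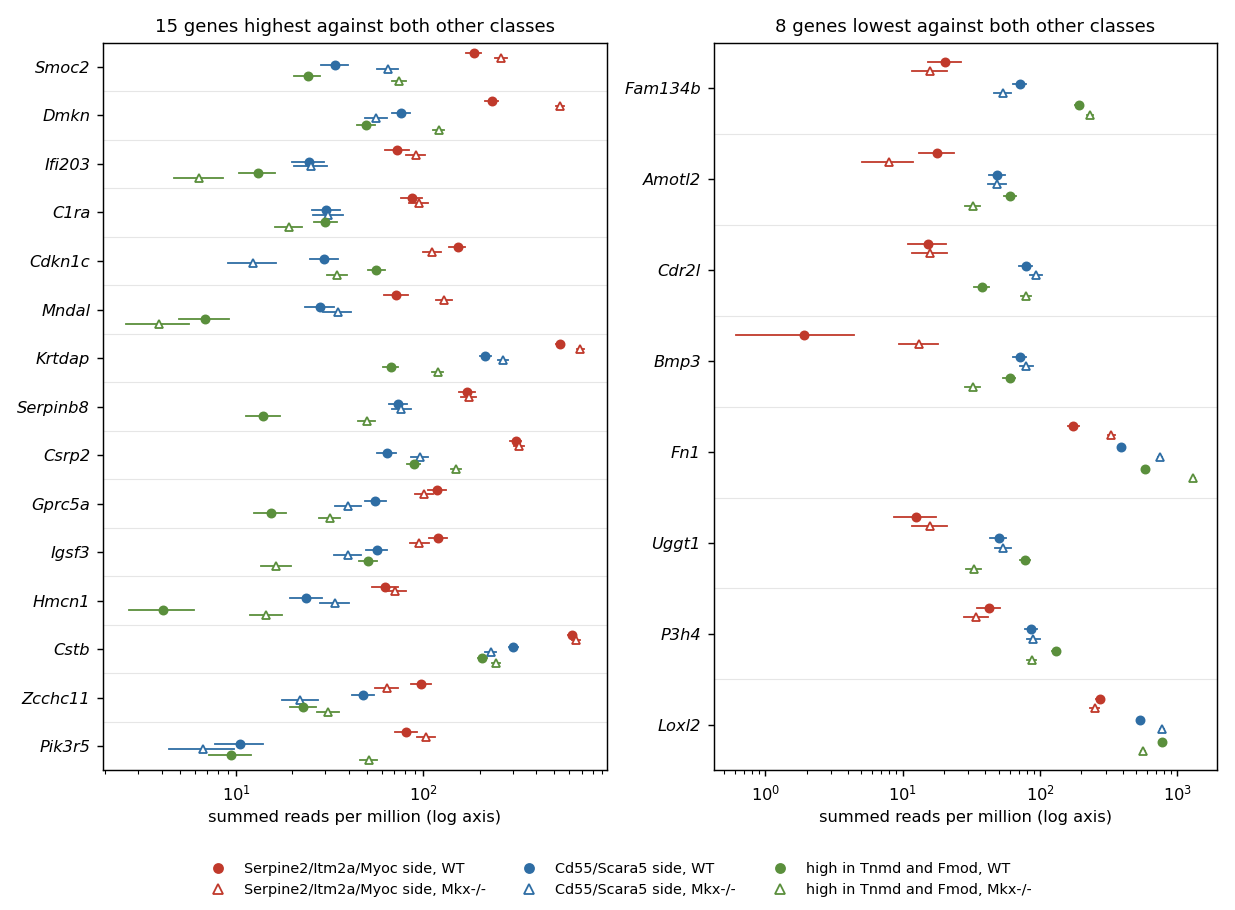
Levels of the 15 leading genes of the Serpine2-side cells, as CPM of summed reads on a log axis with exact Poisson 95% intervals, in the 3 classes of each genotype, and beside them of the 8 named genes that were lowest there. Each of the 15 sits over 2-fold above both other classes in both genotypes, which is how they were chosen, as for Smoc2 at 185.9 and 260.4 CPM in the members against at most 74.04 elsewhere.

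The windows around the starts of Dmkn and Krtdap are printed because these neighbouring genes led the class together and both windows held the letters TGANTCA, the AP-1 site bound by Fos and Jun proteins. Sequences are RefSeq's on GRCm38.p6 (mm10), plus strand, 250 bases before to 30 after the annotated start, with matches in capitals. The match in Dmkn begins 89 bases and that in Krtdap 81 bases before the start, and Krtdap also holds the TATA box TATAAA 30 bases before its start.
Dmkn chr7:30763506-30763785: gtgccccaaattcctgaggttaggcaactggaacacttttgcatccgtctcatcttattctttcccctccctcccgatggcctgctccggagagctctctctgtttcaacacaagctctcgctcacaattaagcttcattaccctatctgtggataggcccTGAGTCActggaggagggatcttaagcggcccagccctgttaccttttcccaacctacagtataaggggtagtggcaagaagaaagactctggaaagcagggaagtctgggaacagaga
Krtdap chr7:30787655-30787934: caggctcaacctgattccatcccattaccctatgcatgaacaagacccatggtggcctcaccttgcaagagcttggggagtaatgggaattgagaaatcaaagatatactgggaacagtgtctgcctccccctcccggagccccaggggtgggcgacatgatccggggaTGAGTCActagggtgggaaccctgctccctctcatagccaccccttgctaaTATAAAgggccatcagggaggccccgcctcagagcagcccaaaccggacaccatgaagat
The motif search covered both strands of 300-base windows (250 before to 50 after a start), and no searched motif overlapped another in these 2 stretches. TGANTCA, which reads alike on both strands, was in 2565 of 32851 windows of the reference table (7.81%), and TATAAA in 4473 (13.6%). Entries were held for 9 of the 15 leading genes, in 13 windows, and TGANTCA was in 9 windows of 5 genes (Dmkn, Krtdap, Ifi203, Mndal and Serpinb8). Of all genes over 2-fold higher than in both classes, 69 had an entry and 16 of these (23.2%) held TGANTCA, against 298 of 4652 (6.41%) of all genes with at least 100 member reads. Besides the 5 leading genes, the 11 others of the 16 were AW551984, Btbd11, Hmcn2, Mgat4a, Mme, Mmp10, Mmp3, Rbp4, Rufy1, Slc37a2 and Tbc1d14. The share was 3 of 92 (3.26%) among genes lower in members than in both classes. It was 42 of 376 (11.2%) among genes higher in Tnmd-high than in Cd55-side cells and 86 of 1184 (7.26%) among the reverse. Genes had differing numbers of windows, which these shares do not take into account. The third motif searched, an interferon response element spelled as GAAA repeated after a gap of any 2 bases, was in 4 of the 69 (5.80%) and in 3.37% of the 4652. These shares are descriptions of letters in windows, and binding was not measured.

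Csrp2, a LIM-domain protein of smooth muscle and stellate cells, and Cstb, the protease inhibitor cystatin B, were read in most members. Csrp2 stood at 311 and 325 CPM against 63.6 and 95.7 in Cd55-side and 88.9 and 149.7 in Tnmd-high cells, with 45 of 65 and 54 of 62 members holding a read. Cstb stood at 623 and 653 CPM against 302 and 228 and 206.8 and 245, with reads in 51 and 56 members. Both genes were spread over the class rather than carried by a few cells.

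Cdkn1c, which encodes the cyclin-dependent kinase inhibitor p57, stood at 152.2 and 111.2 CPM against 29.6 and 12.3 in Cd55-side and 56.01 and 34.6 in Tnmd-high cells. It was read in 21 of 65 WT and 19 of 62 Mkx-/- members, and in members with a score above -1 its smallest gap was -0.08 log2. Cdkn1c thus led the class through the far end of the score. C1ra, the protease that starts the classical complement cascade, stood at 86.5 and 94.6 CPM against 30.3 and 31.1 and 29.97 and 19.1. Ifi203 and Mndal, interferon-inducible neighbours on chromosome 1 from one gene family, stood at 72.5 and 90.99 and at 71.7 and 129.4 CPM in members. In Cd55-side cells Ifi203 stood at 24.4 and 25.1 CPM and Mndal at 28.02 and 34.9. Reads of such similar genes may be shared between them, so their levels are uncertain. The other leading genes had smallest gaps of 1.02 to 1.19 log2. They were Serpinb8 (a serpin), Gprc5a (an orphan receptor), Igsf3 (an immunoglobulin-family membrane protein), Hmcn1 (hemicentin, a matrix protein), Zcchc11 (an RNA uridylyltransferase) and Pik3r5 (a regulatory subunit of phosphoinositide 3-kinase).

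Of 10199 genes with at least 100 reads over the cells that were not members, 1.34% were over 2-fold lower in members than in both other classes in both genotypes. The 8 named by the rule on expression in the other classes included matrix and adhesion genes. Fn1, fibronectin, stood at 174.2 and 331 CPM in members against 388 and 749 in Cd55-side cells and 582 and 1306 in Tnmd-high cells. Loxl2, an enzyme that cross-links collagen and elastin, stood at 274 and 250.1 CPM against 533 and 775 and 768 and 561, its smallest gap being 0.96 on the log2 scale. Both genes of matrix assembly were thus lowest in the Serpine2-side cells. P3h4, a partner of collagen-modifying enzymes, stood at 42.5 and 34.4 CPM against 86.3 and 89.6 and 129.9 and 86.8. Bmp3, a bone morphogenetic protein that antagonizes bone-inducing members of its family, stood at 1.90 and 13.2 CPM against 71.1 and 79.6 and 59.9 and 32.4. Fam134b, a receptor for turnover of the endoplasmic reticulum, had the widest margin, at 20.5 and 15.9 CPM against 71.3 and 53.6 and 191.1 and 230.1. The others were Amotl2, an angiomotin of cell junctions, Cdr2l, and Uggt1, which checks glycoprotein folding. Of these 8 genes 0 stayed over 2-fold below both classes under every alternative tried.

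Matrix genes are counted here as above or below both classes at any size, to be read beside the 19.3% and 7% of all genes. Of 11 fibrillar collagens compared, 0 were above or below both classes in both genotypes, and the median stood -0.06 and 0.10 log2 from Cd55-side cells. Of 12 network and fibril-associated collagens, 3 were above both. Col4a1 and Col4a2, the chains of basement membrane collagen, stood at 446 and 473 and at 511 and 487 CPM, against 203.9, 364, 154.5 and 283 in Cd55-side cells and 103.1, 220.6, 112.2 and 225.6 in Tnmd-high cells. Col18a1, the source of endostatin, stood at 60.3 and 68.2 CPM against 15.3 and 11.03 and 26.04 and 40.7. These 3 collagens were thus highest in the Serpine2-side cells in both genotypes, also beyond the shift, and of 10 basement membrane genes 3 were above both classes. Of 17 elastic fibre genes 4 were above and 2 below both, and Fbn1, fibrillin-1, lay between at 3757 and 3058 CPM (7507 and 7554 in Cd55-side, 1007 and 1116 in Tnmd-high cells).

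Of 15 matricellular genes 1 was over 2-fold above and 2 were below both classes, of 10 small leucine-rich proteoglycans 0 were above and 1 was below, and of 7 hyaluronan and lubricant genes 3 were above. Prg4, the lubricin of gliding surfaces, stood at 8551 and 10403 CPM in members against 3968 and 6262 in Cd55-side and 5691 and 6385 in Tnmd-high cells. Of 9 matrix metalloproteinases and their inhibitors 3 were above both. Mmp3, stromelysin-1, stood at 355 and 503 CPM against 48.8 and 105.5 and 130.9 and 68.9, with 31.6% and 37.1% of the member reads in 1 cell of each genotype. Lubricin was thus highest in these cells by a margin that in WT (0.59 log2 over Tnmd-high cells) was the size of the shift, and Mmp3 by a wide one that leaned on single cells.

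The osteochondrogenic genes that the study examined set the members apart from Cd55-side cells more than from Tnmd-high cells. Mgp, the matrix Gla protein that inhibits calcification, stood at 1524 and 1502 CPM in members, 14.7-fold and 7.24-fold over Cd55-side cells (103.7 and 207.4) and below Tnmd-high cells (2517 and 4470.5). In WT members the lowest cell was at 0, the median at 415 and the highest at 17480.3 CPM, and 57 of 65 held a read. Comp, cartilage oligomeric matrix protein, stood at 199.6 and 259 CPM, 17.5-fold and 19.4-fold over Cd55-side cells (11.4 and 13.3), with Tnmd-high cells at 88.6 and 343. Sox9, the transcription factor of cartilage, followed the same order at 99.03 and 52.3 CPM between 12.3 and 15.4 in Cd55-side and 220.1 and 141.01 in Tnmd-high cells. For Mgp and Sox9 the Serpine2-side cells thus stood between the other classes in both genotypes, while Comp in WT was above both. Of the 4 osteochondrogenic genes of the study (Spp1, Ogn, Mgp and Comp), 2 lay between in both genotypes. Runx1, a transcription factor of blood and skeletal cells, was above both at 267 and 235 CPM (101.2 and 113.9 in Cd55-side, 182.9 and 141.3 in Tnmd-high cells), though in WT its gap to Tnmd-high cells (0.55 log2) was within the shift. Ibsp, Sp7, Alpl and Dmp1, 4 of the 6 osteoblast markers, had 0 reads in the members, while Bglap, osteocalcin, was read in 3 of 65 WT and 6 of 62 Mkx-/- members and Runx2 in 1 cell of each genotype.

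Growth factor and signalling genes were grouped by role. Of 9 genes of the insulin-like growth factor system 3 were above both classes and 1 below, beside 19.3% and 7% of all genes. Igfbp7, a binding protein of this system, stood at 287 and 422 CPM against 49.9 and 90.1 in Cd55-side and 397 and 824 in Tnmd-high cells, and Igfbp3 at 298 and 247 against 19.1 and 73.4 and 259 and 162.2. Of the Igfbp3 reads in Mkx-/- members, 56.8% came from 1 cell. Igfbp7 was thus well above its Cd55-side level in both genotypes, and Igfbp3 in WT, while its level in Mkx-/- members rested on that cell. Of 17 genes of transforming growth factor and bone morphogenetic protein signalling 4 were above and 1 below, which for the first is close to the share of all genes. Gdf10, a ligand of this family, was highest in the members, at 37.9 and 26.1 CPM against 1.14 and 1.03 in Cd55-side and 0.151 and 5.12 in Tnmd-high cells. Id1, an inhibitor of differentiation induced by bone morphogenetic proteins, stood at 106.2 and 100.3 CPM against 33.3 and 41.6 and 40.6 and 78.5, the gap to Mkx-/- Tnmd-high cells (0.35 log2) again within the shift.

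Of 11 platelet-derived and fibroblast growth factor genes 4 were above both classes, Pdgfra among them, and of 9 Wnt modulators 4 were above and 1 below, again beside 19.3% and 7% of all genes. Sfrp4, a secreted Wnt antagonist, stood at 46.7 and 168.1 CPM against 21.2 and 31.6 in Cd55-side and 10.7 and 15.4 in Tnmd-high cells, with reads in 8 of 65 and 20 of 62 members. Of 11 complement and chemokine genes 4 were above both. These counts come from short lists on CPM that holds the shift over Tnmd-high cells. Serping1, the inhibitor of C1r and C1s, stood at 931 and 1126 CPM against 542 and 640.3 and 371 and 545. C1ra and Serping1 were thus both highest in the Serpine2-side cells in both genotypes, a protease alongside its inhibitor.

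Lists of general cell state were counted in the same way. Of 13 immediate early and heat shock genes, which respond to tissue dissociation, 1 was above and 1 below both classes, of 16 genes of endoplasmic reticulum secretion 0 were above and 3 below, of 13 glycolysis genes 3 were above, and of 7 cell cycle genes 0 were above or below.

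Within the members, genes outside the rule followed the score. Over the members and 2341 genes with at least 300 reads, Spearman's coefficient with the score turned in sign, so that a positive value means higher towards the Serpine2 end, ran from -0.59 to 0.55, with 23 genes above 0.3 and 24 below -0.3. These values describe cells that share 2 genotypes and their libraries, and the coefficient of the read total was 0.03. Towards the Serpine2 end stood Igfbp7 (Spearman 0.55), Comp (0.50), Mgp (0.48), Bgn (0.44), the small proteoglycan biglycan, and Gsn (0.42), the actin-severing gelsolin. In the 65 members with a score of -1 or below, Igfbp7 stood at 526 CPM against 173.1 in the 62 members above -1, Comp at 363 against 84.5, and Mgp at 2220.3 against 722. Towards the Cd55 end stood Fbn1 (-0.59, 2083 against 4834 CPM), Fstl1 (-0.57, 5761 against 10981), Col14a1 (-0.44), a fibril-associated collagen, and Pcolce2 (-0.42), an enhancer of procollagen processing. Thy1 (-0.44) and Ly6a (-0.37) were also lower towards the Serpine2 end.

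**Figure D3:**
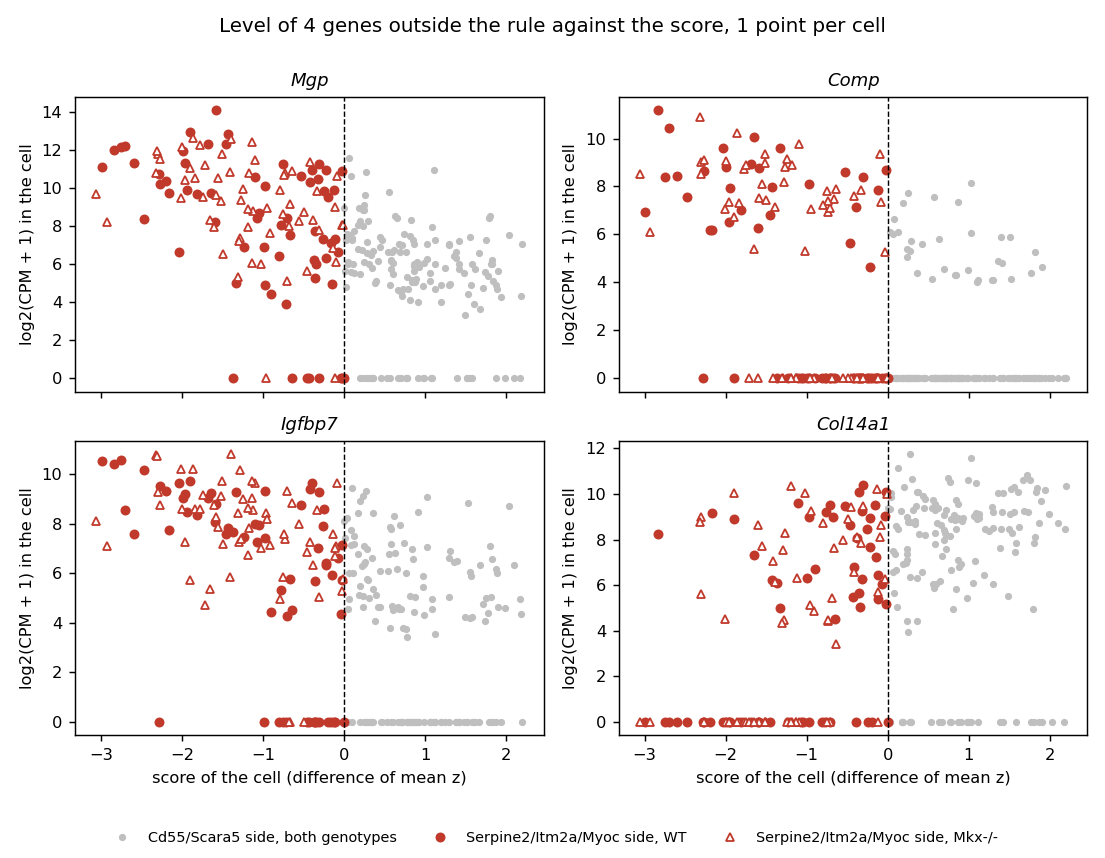
Level of 4 genes outside the rule (log2(CPM + 1)) against the score, with 1 point a cell, filled circles for WT and open triangles for Mkx-/- members, and grey points for Cd55-side cells right of the dashed line at the cut. Mgp, Comp and Igfbp7 were higher in members towards the Serpine2 end (Spearman 0.48, 0.50 and 0.55) and Col14a1 was lower there (Spearman -0.44), with many cells at 0 for Comp and Col14a1.

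The leading genes of the class followed the score to differing degrees. Their coefficients were smaller than those just given, which belong to genes named from the ends of the ranking. Spearman's coefficient was 0.31 for Pik3r5, 0.30 for Dmkn, 0.28 for Csrp2, 0.27 for Mndal, 0.25 for Igsf3 and 0.23 for Cdkn1c. It was 0.201 for Hmcn1, 0.196 for Cstb, 0.17 for Smoc2 and 0.15 for Gprc5a. It was near 0 for Serpinb8 and Zcchc11 (0.07 each), Ifi203 (0.04), C1ra (-0.002) and Krtdap (-0.01). Pik3r5 stood at 149.2 CPM in members scoring -1 or below against 31.03 in the others, and Mndal at 152.2 against 47.1. Krtdap was therefore about as high in members near the cut as in those far from it, and Col1a1 also did not follow the score (Spearman -0.02).

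The share of Serpine2-side cells was close in both genotypes. They were 28.6% of the WT cells (exact Clopper-Pearson 95% interval 22.8% to 34.99%). In Mkx-/- mice the share was 27.7% (21.9% to 34.03%), which was -0.956 percentage points from WT (Newcombe interval -9.21 to 7.32), and captured cells need not reflect shares in the tendon. Along the score, which is made of the rule's own genes, 37 of 62 Mkx-/- members (59.7%) scored -1 or below, against 28 of 65 WT members (43.1%). These counts describe the chosen cells, and no interval was made for their difference.

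Of the 6693 genes, 707 (10.6%) were at least 2-fold higher and 602 (8.99%) at least 2-fold lower in Mkx-/- than in WT members, with the median gene at 0.02 log2. In the Cd55-side cells 667 of 7888 genes (8.46%) were at least 2-fold higher and 684 (8.67%) lower, and in the Tnmd-high cells 1150 of 8358 (13.8%) and 554 (6.63%). Of the 1309 genes past 2-fold in members, 685 (52.3%) drew over 25% of the reads of their higher genotype from 1 cell, so the counts hold many genes that 1 cell decides. Opposite 2-fold differences between members and another class were seen for 1.68% of 6366 genes against Cd55-side cells and 1.57% of 6416 against Tnmd-high cells. The 20 genes named further below by the size of their difference had no cell over that share.

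The tenocyte genes were higher in Mkx-/- than in WT members. Of 7 that could be compared, 7 were above 0 and 2 of these at least 2-fold higher, with a median of 0.94 log2. The median was 0.45 in Cd55-side cells (7 compared) and -0.41 in Tnmd-high cells (10 compared). Col1a1 was 1.72-fold higher (log2 0.78, 0.76 to 0.81, a 95% interval of counting error as for every log2 value below), and Mkx-/- members ranged wide, since the lowest cell was at 4072, the median at 9204 and the highest at 39116 CPM. The groups overlapped, WT members reaching 23578 CPM. Kera, keratocan, a proteoglycan of ordered collagen, stood at 12.1 CPM in WT and 88.3 in Mkx-/- members (log2 2.86, 2.33 to 3.44), with reads in 19 of 65 and 43 of 62. Wif1, a Wnt inhibitor, stood at 11.003 and 52.3 CPM (log2 2.25), with reads in 18 and 46 cells. Kera and Wif1 were thus read in most Mkx-/- members and in a minority of WT members. Thbs4, a thrombospondin of tendon, stood at 455 and 902 CPM. Mkx-/- members also had a higher median of the mean of Tnmd and Fmod, which the rule used, as had Mkx-/- cells of both other classes. Without the 33 members over 7 in their mean, the log2 difference was 0.80 for Col1a1, 2.08 for Kera, 2.03 for Wif1 and 0.78 for Thbs4. With the Tnmd and Fmod cut at 11 it was 0.29 for Col1a1, 1.14 for Kera and 0.60 for Thbs4. These were their lowest values over the alternatives tried, and that of Wif1 was 1.70. The difference stayed above 0 for these 4 genes, while for Col1a1, Kera and Thbs4 its size depended on the cut.

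The matrix lists given here share genes such as Col1a1, Col1a2, Kera and Thbs4 with the tenocyte list, and they too were mostly higher in Mkx-/- members. Counts at 2-fold here and below are to be read beside 10.6% higher and 8.99% lower of all genes. Counts above 0 are to be read beside a median gene at 0.02 log2. All 8 fibrillar collagens compared were above 0, 0 of them by 2-fold, and Col5a3 had an interval that spans 0 (-0.09 to 0.19). Their median was 0.52 log2, against 0.08 in Cd55-side cells (8 compared) and -0.23 in Tnmd-high cells (10 compared). Of 12 network and fibril-associated collagens 10 were above 0 and 3 at least 2-fold higher (median 0.56). These were Col8a1, a short-chain collagen, at 19.4 and 105.5 CPM (log2 2.45, 2.02 to 2.90), Col6a3 at 236 and 547 (log2 1.21), and Col12a1 (log2 1.95). The difference fell under 2-fold for Col6a3 in members scoring -1 or below (0.67) and for Col12a1 with the score cut at 0.5 (0.81). The 3 genes belong to different collagen families. Of 9 small leucine-rich proteoglycans 8 were above 0 and 3 at least 2-fold higher, namely Kera, Ogn and Epyc (median 0.48), though Epyc, epiphycan, differed by -0.69 when cells were thinned to equal reads. Of 14 matricellular genes 10 were above 0 and 2 at least 2-fold higher, one of them Tnc, tenascin-C (log2 2.37).

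Mmp2, gelatinase A, a gene the study had followed, was higher in Mkx-/- members. In WT members the lowest cell was at 0, the median at 293 and the highest at 4391 CPM, and in Mkx-/- members the lowest cell was at 0, the median at 938 and the highest at 8486 CPM. The summed level was 568 and 1410.5 CPM (log2 1.31, 1.23 to 1.40), while the difference was -0.24 in Cd55-side and 1.57 in Tnmd-high cells. The highest WT cells stood above the median Mkx-/- cell, so the groups overlapped, and over the alternatives tried the difference was 0.87 to 1.46. Of 8 matrix metalloproteinases and inhibitors 2 were at least 2-fold higher and 1 lower, the lower being Timp3, a matrix-bound inhibitor of metalloproteinases, at 61.8 and 11.2 CPM (log2 -2.46).

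**Figure D4:**
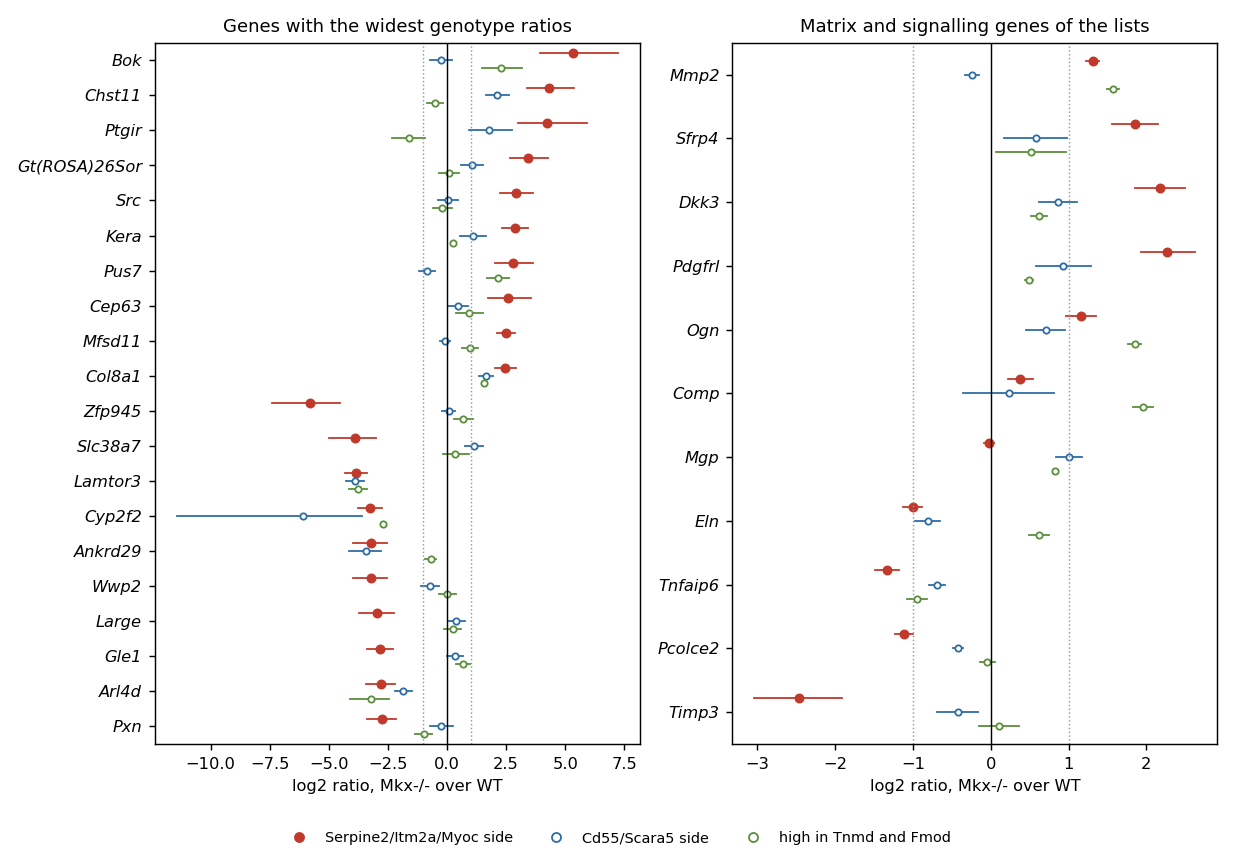
Log2 ratio of Mkx-/- to WT summed CPM for named genes in Serpine2-side, Cd55-side and Tnmd-high cells, with exact conditional 95% intervals of counting error. A genotype with 0 reads is set to 3 reads, so that point is a bound (Cyp2f2 in Tnmd-high cells), and dotted lines mark a 2-fold difference. Kera, Col8a1 and Mmp2 sit above 0 and Lamtor3 below 0 in the Serpine2-side cells, and Lamtor3 is below 0 in all 3 classes.

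Of the osteochondrogenic genes, which the study had examined in these same cells and which are therefore no independent evidence, Ogn, osteoglycin, stood at 121.04 and 270.3 CPM in WT and Mkx-/- members (log2 1.16, 0.97 to 1.35). Comp differed by 0.38 log2 (0.22 to 0.54) and Mgp by -0.02 (-0.08 to 0.04). In members scoring -1 or below Ogn differed by 1.71, Comp by -0.16 and Mgp by -0.52, and in the others by 0.56, 1.04 and 0.47, so the difference of all 3 depended on the place along the score. With cells weighted equally Ogn differed by 0.82, and its 2-fold difference was lost there as in the members above -1. In Mkx-/- members Mgp ranged so that the lowest cell was at 0, the median at 648 and the highest at 6331 CPM. The list's median was 0.38 over these 3 genes, against 0.71 in Cd55-side cells (3 compared) and 1.63 in Tnmd-high cells (4 compared, with Spp1). Spp1, osteopontin, had too few reads for the comparison, with 1 read in 1 of 65 WT and 57 reads in 11 of 62 Mkx-/- members. Of the angiogenic list, with a median of 0.16, Hif1a differed by 0.19 and Thbs1 by 0.16 (-0.15 to 0.47). Over the alternatives tried Hif1a ran from -0.07 to 0.26 and Thbs1 from -1.01 to 0.79, with its sign changed in 5 of 14. Vegfa, the vascular growth factor, differed by -0.85, with -1.50 in members scoring -1 or below and -0.04 in the others. Of the genes that the study named from whole tendon, 1 of 5 was at least 2-fold higher, which was Mmp2. The other 4 were below 0, namely Ctgf (-0.64), Sox9 (-0.92), Postn (-0.31) and Runx1 (-0.19). Postn differed by 0.72 in members scoring -1 or below. Runx1 changed sign in 3 of 14 alternatives, with 0.54 in members scoring above -1. The median of this list was -0.31, the value of Postn, against 0.17 in Cd55-side cells (5 compared) and 0.64 in Tnmd-high cells (6 compared).

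Among signalling genes, 4 of 6 Wnt modulators were above 0 and 3 at least 2-fold higher in Mkx-/- members. The median of the 6 was 1.004 log2 (0.66 to 1.35, the medians of the interval bounds). It was 0.86 in Cd55-side cells (5 compared) and 0.52 in Tnmd-high cells (7 compared). The 3 at least 2-fold higher were Wif1, also of the tenocyte list, Sfrp4 (46.7 and 168.1 CPM, log2 1.85, with 29.7% of Mkx-/- reads in 1 cell) and Dkk3 (36.4 and 164.1, log2 2.17, 1.85 to 2.50). All 3 encode secreted proteins of which Wif1 and Sfrp4 bind Wnt ligands. Of 9 platelet-derived and fibroblast growth factor genes 1 was at least 2-fold higher and 2 lower, beside 10.6% and 8.99% of all genes. Pdgfrl, a receptor-like protein, stood at 30.7 and 148.2 CPM (log2 2.27, 1.93 to 2.63), and Fgf2, a fibroblast growth factor, at 218.2 and 88.3 (log2 -1.30). The Fgf2 difference was -2.24 in members scoring -1 or below and -0.14 in the others. Of 15 genes of transforming growth factor and bone morphogenetic protein signalling 1 was at least 2-fold higher, which was Inhba, the activin A subunit (80.1 and 258 CPM, log2 1.69), with 2.77 in members scoring -1 or below and 0.26 in the others. Fgf2 and Inhba were thus past 2-fold at the far end of the score and not near the cut. Of 9 insulin-like growth factor genes and of 9 complement and chemokine genes 0 were past 2-fold.

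Other lists held single genes past 2-fold in either direction, beside 10.6% of all genes higher and 8.99% lower. Of 12 progenitor genes 8 were below 0 and 2 at least 2-fold lower in Mkx-/- members (median -0.26), Dpp4, a surface peptidase of fibroblast progenitors (log2 -1.75, with -0.77 when cells were thinned), and Pcolce2 (683 and 315 CPM, log2 -1.11). For Pcolce2 the difference was 0.12 in members scoring -1 or below and -1.81 in the others, so the members nearer to the cut carried it. The 1 progenitor gene at least 2-fold higher, Clec3b, had 79.4% of its Mkx-/- reads in 1 cell. Of 14 elastic fibre genes 1 was at least 2-fold higher, Ltbp2 (81.6 and 247 CPM, log2 1.60, with 0.85 when cells were thinned), and 1 lower, Eln, elastin (557 and 278, log2 -1.01, with -0.56 in members scoring -1 or below). The list's median was -0.15. Of 6 hyaluronan and lubricant genes 4 were above 0 (median 0.33) and 1 was at least 2-fold lower, Tnfaip6, which modifies hyaluronan (441 and 175.03 CPM), and of 9 basement membrane genes (median -0.07) 1, Lamb1 (log2 -1.10, with -0.77 in members scoring above -1). Of 12 immediate early and heat shock genes 9 were above 0 (median 0.22), 1 was at least 2-fold higher (Hspa1b, 1.22, with -0.53 when the score cut was moved to 0.5) and 2 were lower. These were Jun (-1.04) and Dnajb1 (-1.07), which in members scoring above -1 differed by -0.21 and -0.04. Of 15 secretion genes 11 were above 0 (median 0.35) and 1 was at least 2-fold higher, and of 13 glycolysis genes 7 were above 0 (median 0.06) and 1 was at least 2-fold lower. Of 3 cell cycle genes compared 3 were at least 2-fold higher (median 1.53), among them Top2a, with reads in 2 of 65 WT and 4 of 62 Mkx-/- members, and Mki67, with reads in 5 and 2.

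By the rule on size and spread over cells, the 10 named genes with the largest increase in Mkx-/- members were Bok, Chst11, Ptgir, Gt(ROSA)26Sor, Src, Kera, Pus7, Cep63, Mfsd11 and Col8a1. Bok, a BCL2-family effector of cell death, stood at 1.52 CPM in WT and 60.9 in Mkx-/- members (log2 5.33, 3.95 to 7.22), against differences of -0.25 in Cd55-side and 2.29 in Tnmd-high cells. Chst11, a chondroitin sulfotransferase, differed by 4.29 log2, Ptgir, the prostacyclin receptor, by 4.25, and the kinase Src by 2.91 (7.59 and 56.9 CPM). The levels of the 10 genes in Mkx-/- members ran from 29.4 CPM for Cep63 to 159.1 for Mfsd11.

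The 10 with the largest decrease were Zfp945, Slc38a7, Lamtor3, Cyp2f2, Ankrd29, Wwp2, Large, Gle1, Arl4d and Pxn. Lamtor3 encodes a scaffold of lysosomal mTORC1 and MAP kinase signalling. In WT members the lowest cell was at 0, the median at 126.8 and the highest at 974 CPM, and in Mkx-/- members the lowest cell was at 0, the median at 0 and the highest at 136.9 CPM. It was read in 43 of 65 WT and 20 of 62 Mkx-/- members, and the summed level was 212.5 and 14.9 CPM (log2 -3.83, -4.31 to -3.40). It was as low in the other classes of Mkx-/- mice, with 237 CPM in WT and 15.9 in Mkx-/- Cd55-side cells and 113.5 and 8.44 in Tnmd-high cells. Over the alternatives tried its difference in members was -4.19 to -3.32. Cyp2f2, a cytochrome P450 best known from airway cells, stood at 128.2 and 13.6 CPM in members and 17.8 and 0.257 in Cd55-side cells, so it was highest in the WT members. Zfp945 differed by -5.78 log2 and Slc38a7, an amino acid transporter, by -3.91.

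Marker sums of other cell types were at most 119.5 CPM in the members, apart from perineurial markers and, in Mkx-/- members, immune markers. Perineurial markers were read in 45 WT and 43 Mkx-/- members. Their sums, given next, compare with 211.2 and 306.2 CPM in Cd55-side and 108.2 and 111.7 in Tnmd-high cells. Of 4 perineurial genes compared 2 were above both classes, beside 19.3% of all genes, and 1 of them over 2-fold. Mural sums were 87.7 and 44.4 CPM in Cd55-side cells and chondrocyte sums 15.7 and 27.97, each below the member sums given next. The Schwann sum of Cd55-side cells was below that of members in WT (30.5 CPM) but above it in Mkx-/- (169.9). In Tnmd-high cells these mural, chondrocyte and Schwann sums were all above those of members. Endothelial, osteoblast and keratinocyte sums were higher in Cd55-side cells than in members in both genotypes. Endothelial markers summed to 44.4 CPM in WT and 16.2 in Mkx-/- members (Kdr and Cldn5 at 0), mural markers to 119.5 and 117.5 (Notch3 at 0), perineurial markers to 209.4 and 200.5, Schwann markers to 106.998 and 35.7 (Gfra3 at 0), muscle markers to 5.31 and 0.331, chondrocyte markers to 106.998 and 61.5 (Matn1 and Col9a1 at 0), osteoblast markers to 6.45 and 10.6, keratinocyte markers to 22.8 and 39.04, and erythroid markers to 31.9 and 0.662. Immune markers summed to 34.5 CPM in WT and 355 in Mkx-/- members, with 79.9% of the latter in 1 cell and reads in 9 WT and 16 Mkx-/- members, and all 4 immune genes compared were at least 2-fold higher in Mkx-/- (median 3.56). By at least 3 markers with 3 or more reads each, 4 members held another type's genes, 1 WT cell Schwann genes and 1 WT and 2 Mkx-/- cells immune genes. Their part in the genotype differences is given by the values without them: without them the log2 difference was 1.33 in place of 1.31 for Mmp2, 0.61 in place of 0.38 for Comp, 3.02 in place of 2.86 for Kera and -4.04 in place of -3.83 for Lamtor3.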

How the data were processed

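Tail tendon cells of WT and Mkx-/- mice were sequenced on the C1 system. The table that the authors deposited holds raw counts of reads, with genes in rows and cells in columns: they trimmed reads, aligned them with Bowtie2 and counted them with featureCounts. Their methods name the mm9 genome and their processing notes mm10. Strand setting and treatment of reads with several positions are not given in the sources used here, so similar or overlapping genes may share reads. Of 48795 gene symbols, 69.9% matched RefSeq on GRCm38.p6, whose positions and windows are printed. The paper reports a different number of cells after quality control than the 451 deposited, and does not say how the sets relate. No further filter or doublet caller was applied. 37 mitochondrial symbols held 0 reads.

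With 1 sample a genotype no test was made, and p-values are absent. Counts were summed per class and genotype and scaled to CPM with Poisson 95% intervals (exact), and the interval of a ratio is the exact conditional one (scipy 1.17.1, Python 3.11.15), and a genotype with 0 reads was set to 3 reads. Fold counts needed at least 100 reads. The calculation was tested on simulated data. Members and gene lists were chosen with earlier results of these data known.

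Leading genes were the 15 with the largest smallest gap to both classes in both genotypes, with at least 200 member reads and a read in at least 30% of members of each genotype. The 8 low genes were chosen alike in the other direction. The 10 highest and 10 lowest genotype ratios needed a read in 20% of members of the higher genotype and no cell over 25% of its reads. Genes of the rule, predicted genes and likely copies were left out, and the other genes belong to lists. In all, 13 alternatives were planned and 4 were chosen after seeing the data.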

Additional observations from a re-analysis of the deposited data

Results flagged for a closer look

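The following genes differed between genotypes in one direction in the Serpine2-side cells and at least 2-fold in the other direction in another class. None of these differences between classes was tested. Opposite 2-fold differences were seen for 1.68% of genes against Cd55-side cells and 1.57% against Tnmd-high cells.

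Immune genes were 4 of the 8. The log2 difference of Mkx-/- from WT was 7.51 in Serpine2-side cells for Lyz2, lysozyme, against -1.13 in Cd55-side and -6.53 in Tnmd-high cells. Against Cd55-side cells it was 5.30 and -2.33 for Fcer1g, 1.51 and -3.99 for Cd68, and 1.82 and -1.20 for Cd14. Without the cells that held markers of another type the values in Serpine2-side cells were 1.52 for Lyz2, 3.36 for Cd68 and 1.33 for Cd14, and Fcer1g gave no value. One Mkx-/- member with reads of all 8 immune markers held 566 Lyz2 and 45 Cd68 reads.

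The division genes Top2a and Mki67 differed by 4.18 and 1.53 in Serpine2-side cells and by -1.41 and -2.05 in Cd55-side cells, and by -0.05 and -3.05 in members scoring above -1. Mbp, a myelin protein, differed by -2.21 against 2.48, but by 0.64 without leading cells and 1.45 in members scoring -1 or below, while Slc38a7 differed by -3.91 against 1.13.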

How the results depend on the processing

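No paired analysis was possible because each genotype was 1 sample and the labels share no replicate numbers. Of the alternative values of the overall results, 74 stayed within their spread, 27 moved and 1 was counted as reversed. The cause was not tested, apart from fewer cells or genes entering. That count of reversals does not hold every change of sign. Both list medians given below and the difference in member share changed sign under some alternatives. The difference in member share stayed between -4.06 and 4.25 percentage points.

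Genes at least 2-fold higher and lower in Mkx-/- members, 10.6% and 8.99% of those tested, came to 4.85% and 4.75% of 3008 genes with cells thinned to 13000 reads, 20.4% and 22.6% of 14903 (3034 and 3372 genes) at a minimum of 1 read, and 4.96% and 3.79% of 3325 at 300 reads. Genes over 2-fold higher than in both classes, 1.66%, came to 0.831% (25 genes) with thinned cells, 1.03% (69) under median-of-ratios scaling, 1.72% (330) at 1 read, 1.08% (36) at 300 reads and 1.23% (54) for members scoring above -1. Genes lower than in both, 1.34%, came to 0.354% (19) with thinned cells, 0.587% (41) at 300 reads, 2.12% and 0.661% with score cuts of -0.5 and 0.5, and 2.55% and 2.41% (260 and 246) for members scoring -1 or below and above -1.

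The osteochondrogenic median was 0.027 with a score cut of -0.5, 0.54 with z scores within genotype, 0.76 with every list gene at a pseudocount of 1 CPM, 0.61 without cells with markers of another type, 0.62 without members over 7 in Tnmd and Fmod, and -0.16 and 0.56 for members scoring -1 or below and above -1. The angiogenic median was -0.16 with a score cut of 0.5, -1.01 with thinned cells, -0.28 with cells weighted equally and -0.42 for members scoring -1 or below. Smallest gaps reversed for Cdkn1c (-0.078) and Pik3r5 (-0.44) in members scoring above -1 and for Cdr2l (0.048) and Bmp3 (0.14) with a score cut of 0.5. Of the 15 leading genes 11 fell under 2-fold in members scoring above -1. Leaving out the leading cell of each gene stood in for leaving out replicates. Genes with under about 100 reads were too shallow for a fold.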

Other observations

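A few genes, chosen after their values were seen, differed between genotypes in all 3 classes. Cytl1, a cytokine-like protein known from cartilage, had 758 reads in 15 of 65 WT Serpine2-side cells and 1 read in 62 Mkx-/- cells, and its log2 difference was -2.83 in Cd55-side cells (16 and 2 reads) and -6.49 in Tnmd-high cells (24.8 and 0.277 CPM). Perp, a desmosome protein of the perineurial marker list, differed by 3.02 in Serpine2-side, 3.11 in Cd55-side and 2.23 in Tnmd-high cells, and was read in 2 of 65 WT and 16 of 62 Mkx-/- Serpine2-side cells. Arl4d, a small GTPase, differed by -2.78, -1.85 and -3.23.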
